A study of Bos taurus with 14 samples.

Results

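The miRNAs described here are miR-374 and miR-3613 in bovine blood. Levels are in reads per 1000000 miRNA reads of a library (RPM). The miRNAs were taken by name from the library files as bta-miR-374a, bta-miR-374b, hsa-miR-374b-3p, bta-miR-3613a and bta-miR-3613b, and 4 of these 5 names had a row there, out of 932 names in 14 libraries. No row of bta-miR-3613b was found in the files used, so it was not analysed here. The names were selected on their leucocyte levels, which fell on the high-grain diet in every pair of libraries of a cow, so this diet difference is given below as a description without a test. The human name hsa-miR-374a-5p carried the same counts as bta-miR-374a, and hsa-miR-374b-5p the same as bta-miR-374b, and neither was counted again.

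Small RNA was sequenced from jugular blood of non-lactating Holstein cows with a rumen cannula. Each cow was sampled on a forage diet without concentrate (FD, 0% concentrate) and again in the first week on a high-grain diet (HG, 65% concentrate), which is used as a model of subacute ruminal acidosis. Plasma came from cows 1 to 4, giving 4 libraries per diet, and leucocytes, taken as the buffy coat, from cows 1, 3 and 4, giving 3 libraries per diet. All HG samples followed the FD samples of the same cows, so diet and time cannot be told apart, and RNA from plasma and from leucocytes was extracted with different kits, so tissue and kit cannot be told apart either. Libraries held 376589 to 4464702 miRNA reads in plasma and 21764579 to 66070770 in leucocytes. At these depths, 3 reads corresponded to 0.672 to 7.97 RPM in plasma and to 0.0454 to 0.138 in leucocytes. Reads carried no molecular identifiers, so these limits cover counting error only. All 7 leucocyte marker miRNAs had reads in every leucocyte library, and so did all 6 erythrocyte markers.

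A miRNA is cut from a hairpin precursor whose 5p and 3p arms can each give a mature strand, and usually 1 arm accumulates well above the other. The mature strand guides Argonaute proteins to messenger RNAs that pair with bases near its 5′ end, which lowers their translation and stability. The miR-374 precursors lie on the X chromosome near miR-421 and miR-545 in the locus of a long non-coding RNA, FTX, whereas miR-3613 lies on another chromosome, near miR-15a and miR-16. Here bta-miR-374a and bta-miR-374b are the 5p strands of 2 separate precursors, hsa-miR-374b-3p is the strand from the opposite arm of the miR-374b precursor, and bta-miR-3613a is the mature strand of the miR-3613 precursor.

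On the UMD3.1 coordinates of the library files, bta-miR-374a occupied X:81951234-81951255 on the plus strand. Another 72676 bases separated it from bta-miR-374b at X:82023932-82023953, also on the plus strand. The opposite arm, hsa-miR-374b-3p, followed 8 bases after bta-miR-374b, at X:82023962-82023983. All 4 mature intervals spanned 22 bases. Downstream of bta-miR-374a lay bta-miR-545-5p and bta-miR-545-3p, and downstream of hsa-miR-374b-3p lay bta-miR-421, with a gap of 142 bases. Antisense to members ran a further pair of names, with bta-miR-374c opposite bta-miR-374a and hsa-miR-374c-5p opposite bta-miR-374b. On chromosome 12, bta-miR-3613a occupied 12:19542760-19542781 on the minus strand, and bta-miR-16a and bta-miR-15a lay 53431 and 53577 bases away on the same strand. The RefSeq gene table of another assembly, ARS-UCD2.0, used for names and order only, listed MIR374A, MIR374C, MIR545, MIR374B and MIR421 in succession on X. On chromosome 12 it placed MIR3613A beside MIR3613B, and TRIM13 and KCNRG between them and MIR16A and MIR15A.

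All levels are estimated counts scaled to RPM. In an estimated count, a read that matches several names is shared among them, and this sharing was unequal between members. Reads were divided by about 2 for bta-miR-374a and by about 3 for bta-miR-374b, while those of hsa-miR-374b-3p and bta-miR-3613a were counted whole.

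In leucocytes, all 4 miRNAs were lower on HG than on FD in 3 of 3 cows, and 3 of them were about 2-fold lower (1.91-fold to 2.02-fold) while bta-miR-374b was 1.20-fold lower. The level of bta-miR-374a, the 5p strand of the miR-374a precursor, was 638, 623 and 583 RPM on FD in cows 1, 3 and 4, and 380, 298 and 293 on HG. The HG libraries lay below all FD libraries, with 47.8% to 59.5% of the FD level of the same cow left. The edgeR log2 fold change was -0.94, with a standard error of 0.13.

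The miRNA bta-miR-3613a, from chromosome 12, was at 78.1, 111 and 112 RPM on FD and at 42.3, 47.7 and 58.4 on HG. Its diets did not overlap either, and 43.1% to 54.2% of the FD level was left, for a log2 fold change of -1.02 with a standard error of 0.15. Cow 1 was the lowest of the cows under both diets for this miRNA, whereas it was the highest under both for bta-miR-374a.

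The rarer arm hsa-miR-374b-3p was at 19.3, 19.6 and 11.4 RPM on FD and at 11.7, 8.11 and 6.13 on HG. Here the diets overlapped, as cow 1 on HG was above cow 4 on FD. Within each cow 41.3% to 60.5% of the FD level was left, and the log2 fold change was -0.97 with a standard error of 0.20. These levels rested on 1276, 1107 and 249 reads on FD and on 626, 317 and 169 reads on HG.

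Its partner strand bta-miR-374b was at 515, 547 and 509 RPM on FD and at 463, 432 and 418 on HG. The diets did not overlap, but 79.0% to 89.9% of the FD level was left and the log2 fold change was only -0.26, with a standard error of 0.12. The smallest fall of any member within a cow was that of bta-miR-374b in cow 1. Just outside the rule, the neighbouring bta-miR-421 was lower on HG in 2 of 3 cows, with an edgeR log2 fold change of -0.0041.

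**Figure D1:**
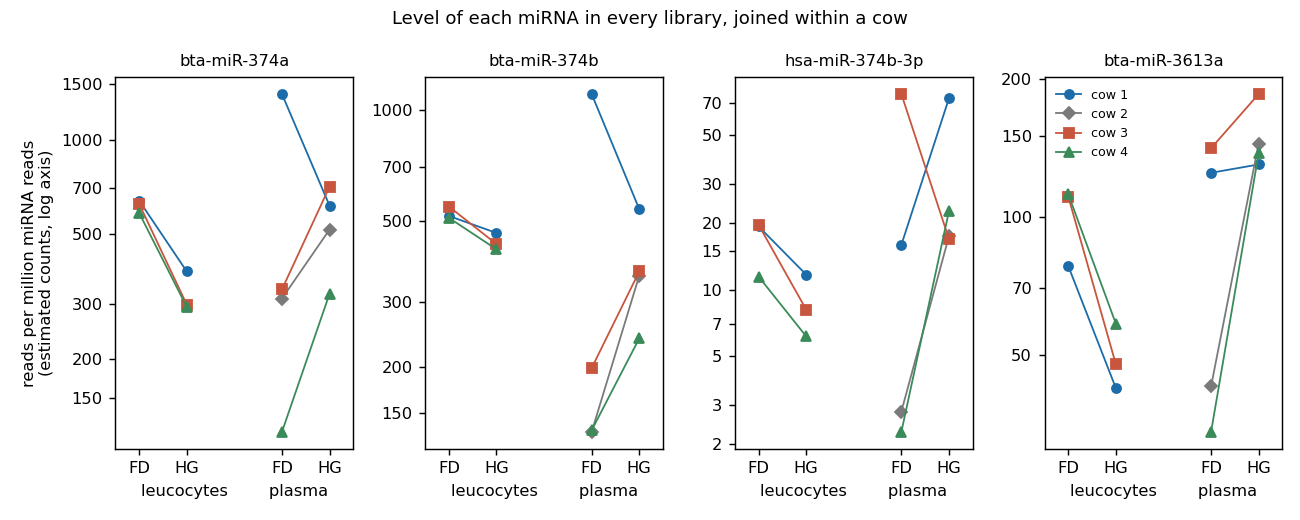
Estimated counts in RPM (log axis, own scale per panel) of the 4 miRNAs in each library, by tissue and diet, with lines joining the FD and HG library of a cow. The leucocyte lines fall in 3 of 3 cows in every panel, least for bta-miR-374b, and the plasma lines spread far more widely.

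Because the leucocyte contrast chose the members, their place in it shows no more than the choice. Among the 782 names tested in leucocytes, 150 (19.2%) were lower on HG in 3 of 3 cows, and 71 (9.08%) had every HG library below every FD library, which 3 of the 4 members met. edgeR called 12 names (1.53%) lower on HG at an adjusted p below 0.05, and for the reason given no call is reported for the members. The median log2 fold change over all 782 names was -0.015. In such bulk samples, fewer cells of a type and less RNA per cell cannot be told apart.

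**Figure D2:**
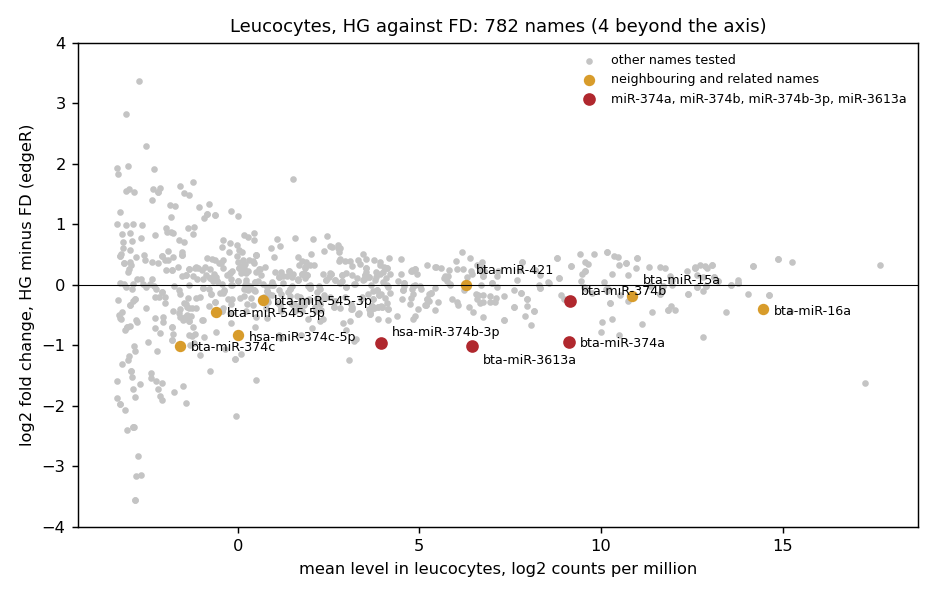
Mean level in leucocytes (log2 CPM) against the edgeR log2 fold change (HG minus FD) for 782 names, 4 of which lie beyond the axis, with the 4 miRNAs in red and neighbouring or related names in yellow. Of the red points 3 lie near -1 at very different levels, while bta-miR-374b lies at -0.26.

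The blood cell markers were compared between the diets in these libraries as well. Under their bovine names alone, summed erythrocyte markers took 15.4% to 21.4% of miRNA reads in FD leucocytes and 18.6% to 29.9% in HG leucocytes. These shares leave out reads credited to the same miRNAs under human names, so they are lower bounds. Among the erythrocyte markers 0 of 6 were called higher and 1 of 6, miR-144, was called lower. Summed leucocyte markers, counted in the same way, took 2.54% to 3.11% on FD and 2.06% to 2.95% on HG, with 2 of 7, miR-142-3p and miR-146a, called lower. For both lists the ranges of the diets overlapped, and over all names 1.53% were called lower. With the erythrocyte names left out of the scaling, the log2 fold changes of the members were -0.88 for bta-miR-374a, -0.21 for bta-miR-374b, -0.92 for hsa-miR-374b-3p and -0.96 for bta-miR-3613a. The part of leucocyte subtypes in the result was not tested.

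Chosen for a fall in leucocytes, all 4 members kept a negative log2 fold change there under every alternative run. That of bta-miR-374a ranged from -1.20 to -0.84, with the low end after scaling to bta-miR-103 and bta-miR-107, a pair often used as reference miRNAs, and the high end without cow 3. The summed reference pair was itself higher on HG in leucocytes, at 0.557% to 0.624% of miRNA reads against 0.486% to 0.497% on FD. The fall was present without each of the cows in turn, which follows from choosing members that fell in every cow. The number of names called across leucocytes was less stable, at 0 without cow 3 and at 102 without cow 4 against 15 with all cows.

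How far the members were lower differed between them, which ratios within a library show without any scaling between libraries. The ratio of bta-miR-374a to bta-miR-374b was 1.24, 1.14 and 1.15 in the FD leucocytes of cows 1, 3 and 4 and 0.820, 0.689 and 0.700 in their HG leucocytes. Thus bta-miR-374a was the higher of the pair in 3 of 3 FD libraries and the lower in 3 of 3 HG libraries. The log2 ratio fell by 0.68 on average, and its SD over the 3 cows was 0.071.

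The change of order depended on how shared reads were counted, but the lower ratio on HG did not. With reads counted whole at each name, bta-miR-374b was the higher of the pair in all 6 leucocyte libraries, and the ratio was 0.760 to 0.827 on FD and 0.460 to 0.547 on HG. As these ratios come from the contrast that chose the members, no test is given for them.

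The 5p strand of miR-374b exceeded its 3p strand by a wide margin, and more so on HG. The ratio of bta-miR-374b to hsa-miR-374b-3p was 26.7, 27.8 and 44.4 in FD leucocytes and 39.6, 53.2 and 68.0 in HG leucocytes of the same cows. Each of the 3 cows had the higher ratio on HG, by 0.71 ± 0.20 on the log2 scale (SD, n = 3), although the values of the diets overlapped between cows. With reads counted whole at each name, the arm ratio was 80.04 to 133 on FD and 119 to 204 on HG.

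By contrast, the members that were about 2-fold lower kept their proportions, which follows from their like falls in the contrast that chose them. The ratio of bta-miR-374a to bta-miR-3613a, which lie on different chromosomes, was 8.17, 5.63 and 5.21 on FD and 8.98, 6.25 and 5.01 on HG. Its log2 change was 0.076 ± 0.11 (SD, n = 3), rising in 2 of 3 cows and falling in cow 4, and the cows kept their order.

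**Figure D3:**
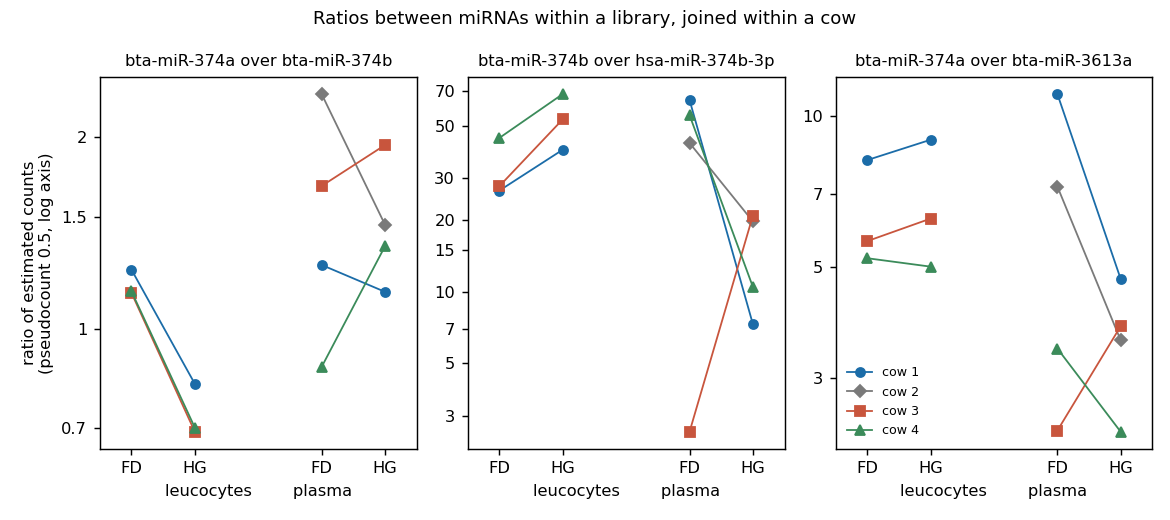
Ratios of estimated counts within each library (pseudocount 0.5, log axis), by tissue and diet, with lines joining the libraries of a cow. In leucocytes the left ratio falls and the middle ratio rises in 3 of 3 cows, and the right ratio changes by less than it differs between cows.

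The neighbours on the same stretch of X did not share a common value in leucocytes, as far as their read numbers could show. The most abundant, bta-miR-421, a separate miRNA 142 bases past hsa-miR-374b-3p, was at 61.7 to 75.5 RPM on FD and 64.1 to 71.0 on HG. Its log2 fold change was -0.0041 with a standard error of 0.15, so 3 mature miRNAs encoded close together on 1 strand stood at -0.26, -0.97 and -0.0041. The ratio of bta-miR-374b to bta-miR-421 was lower on HG in 3 of 3 cows, by a mean log2 change of -0.26 ± 0.17 (SD, n = 3).

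The other neighbours were rare. The miR-545 strands, encoded just past miR-374a, gave 248 reads (3p) and 99 reads (5p) over all FD leucocyte libraries. Their log2 fold changes were -0.24 and -0.45, with standard errors of 0.46 and 0.66. The 3p strand was lower on HG in cows 1 and 3 and higher in cow 4, which had 6 reads of it on FD. The antisense names gave 118 reads (bta-miR-374c) and 431 reads (hsa-miR-374c-5p) on FD, and 44 and 208 on HG. Both were lower on HG in 3 of 3 cows, with log2 fold changes of -1.01 and -0.84 and standard errors of 0.84 and 0.40. At such counts neither passed the edgeR test.

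On chromosome 12, bta-miR-15a changed by -0.19 with a standard error of 0.12, and bta-miR-16a by -0.41 with a standard error of 0.12, against -1.02 for bta-miR-3613a. Of 10 neighbouring and related names tested in leucocytes, all 10 had a negative log2 fold change but 0 passed the edgeR test, the smallest adjusted p being 0.122. The highest of the 10 was bta-miR-421 at -0.0041, and 51.2% of all 782 names lay below it, so a negative sign was common. Over the other 75 names tested on X, 0 were called in leucocytes and the median log2 fold change was -0.068.

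Plasma gave a test that did not take part in the choice of the members. None of the 4 miRNAs passed the test between the diets there, and the spread between cows was far larger than in leucocytes. For bta-miR-374a the plasma levels of cows 1 to 4 were 1396, 311, 333 and 117 RPM on FD and 616, 517, 708 and 323 on HG. It was lower on HG in cow 1 and higher in the other 3 cows, and the diets overlapped. The log2 fold change was 0.12 with a standard error of 0.51 (edgeR, adjusted p = 0.960).

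For bta-miR-374b the levels were 1107, 133, 199 and 134 RPM on FD and 538, 354, 364 and 239 on HG. Cow 1 again stood far above the other cows on FD, from the smallest of all libraries, with 1251 reads of this miRNA before division. The log2 fold change was 0.12 with a standard error of 0.53 (edgeR, adjusted p = 0.960).

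The plasma levels of bta-miR-3613a were 125, 42.7, 141 and 34.0 RPM on FD and 130, 145, 185 and 138 on HG. In RPM its HG library exceeded the FD library in 4 of 4 cows, as was true of 71 (13.2%) of the 538 names tested in plasma, but after TMM scaling cow 3 was lower. With TMM scaling bta-miR-374a, hsa-miR-374b-3p and bta-miR-3613a were higher on HG in 3 of 4 cows and bta-miR-374b in 2 of 4, while 202 names (37.5%) were higher in at least 3 of 4. The edgeR fit gave a log2 fold change of 0.67 with a standard error of 0.73 and an adjusted p of 0.938.

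The rare arm hsa-miR-374b-3p had 6, 4, 135 and 7 reads on FD and 328, 17, 18 and 77 reads on HG. The 135 reads of cow 3 on FD were copies of 1 distinct sequence, against a median of 4 for the 43 names with 0.5 to 2 times as many reads in that library. The 328 reads of cow 1 on HG fell into 4 distinct sequences, against a median of 6 for 77 such names. In leucocytes the same miRNA had 9 to 28 distinct sequences per library. Its plasma log2 fold change of 1.49 had a standard error of 1.45 (edgeR, adjusted p = 0.938), so no diet difference was detectable at this depth.

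Over all names, edgeR called 0 of 538 (0%) in plasma, with 55 at an unadjusted p below 0.05, while the DESeq2 Wald test called 12, none of them a member. The median log2 fold change over all plasma names was 0.25, so bta-miR-374a and bta-miR-374b lay below the median and bta-miR-3613a and hsa-miR-374b-3p above it. At a minimum of 10 CPM the median was 0.034, and bta-miR-374a (0.14) and bta-miR-374b (0.13) lay above it too. The leucocyte and plasma diet differences were not tested against each other, since the leucocyte values had chosen the members.

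**Figure D4:**
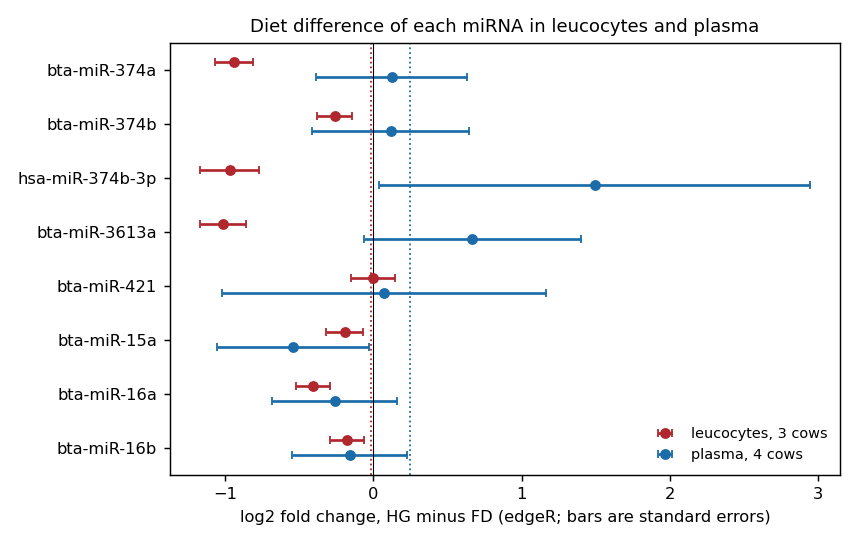
Log2 fold changes (HG minus FD, edgeR) with standard errors in leucocytes (red, 3 cows) and plasma (blue, 4 cows), with dotted lines at the median of all names in each tissue. The plasma bars are several times wider, and the plasma estimates of the 4 miRNAs lie at 0.12 to 1.49.

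The ratios within a library, which were free of scaling between plasma libraries, showed no diet difference beyond the spread between cows in plasma either. The ratio of bta-miR-374a to bta-miR-374b was 1.26, 2.34, 1.68 and 0.872 on FD and 1.14, 1.46, 1.94 and 1.35 on HG. The mean log2 change was 0.0054 ± 0.56 (SD, n = 4 cows), with 2 of 4 cows higher (two-sided exact test over all sign flips of the cows, p = 1, adjusted p = 1 over 6 ratios). For 4 cows the smallest p of this test is 0.125, so it could not reach 0.05.

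The arm ratio of miR-374b in plasma was 64.2, 42.3, 2.58 and 55.4 on FD and 7.32, 19.8, 20.9 and 10.5 on HG. It was lower on HG in 3 of 4 cows and higher in cow 3, whose 3p reads on FD were of a single sequence. The mean log2 change was -0.90 ± 2.75 (SD, n = 4; two-sided exact test over sign flips, p = 0.5, adjusted p = 1).

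With divided reads bta-miR-374b had a higher mean than bta-miR-374a in HG leucocytes and a lower one in the other groups, but the rest of the order by level was shared. In both tissues and on both diets the means of bta-miR-374a and bta-miR-374b were well above that of bta-miR-3613a, and hsa-miR-374b-3p was lowest. Named in this order, the means on FD were 615 ± 28.5, 524 ± 20.2, 100.2 ± 19.2 and 16.8 ± 4.64 RPM in leucocytes (SD, n = 3). In plasma they were 539 ± 579, 393 ± 477, 85.7 ± 55.2 and 24.5 ± 35.5 (SD, n = 4). Across cows the FD ranges of neighbours in this order overlapped in plasma, whereas in leucocytes they did not. Within each plasma FD library, however, bta-miR-374b was above bta-miR-3613a. The ratio of bta-miR-3613a to hsa-miR-374b-3p was 1.83 to 14.1 there, and that of bta-miR-374a to bta-miR-374b was 0.872 to 2.34. On HG the means were 323 ± 48.9, 438 ± 23.1, 49.5 ± 8.22 and 8.64 ± 2.81 in leucocytes and 541 ± 165, 374 ± 123, 149 ± 24.7 and 32.6 ± 27.4 in plasma. Of the HG ranges in plasma, only those of bta-miR-374a and bta-miR-374b overlapped.

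Plasma and leucocytes were compared over both diets in a single edgeR fit. The median log2 difference of all 800 names was -1.51 (plasma minus leucocytes), so each member is given with its distance from that median. For bta-miR-374b the log2 difference was -1.29 with a standard error of 0.35 (adjusted p = 0.00901), 0.22 above the median, and it was 1 of 216 names (27%) called lower in plasma. This call was lost with library size scaling (adjusted p = 0.584), on FD libraries alone (adjusted p = 0.20), without cow 3 (adjusted p = 0.139) and without cow 4 (adjusted p = 0.116).

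For bta-miR-374a the difference was -0.73 with a standard error of 0.33 (edgeR, adjusted p = 0.0878), which lay 0.78 above the median and became 0.29 with library size scaling. The value of bta-miR-3613a, -0.027 with a standard error of 0.39 and an adjusted p of 0.968 in edgeR, lay 1.49 above the median. For hsa-miR-374b-3p it was 0.62 with a standard error of 0.75 (edgeR, adjusted p = 0.498), 2.13 above the median. All 4 members lay above the median of all names in this fit, but their place depended on the setting. At a minimum of 10 CPM the median was -0.335. There bta-miR-374a (-1.04), bta-miR-374b (-1.59) and bta-miR-3613a (-0.341) lay below it, and hsa-miR-374b-3p (0.28) above it. With DESeq2 the median was -0.87, and bta-miR-374a (-0.96) and bta-miR-374b (-1.54) lay below it, the other members above it. Other settings also moved the call of bta-miR-374a, which passed the edgeR test at a minimum of 10 CPM (log2 difference -1.04, adjusted p = 0.0134) and without cow 1 (log2 difference -1.67, adjusted p = 0.00590). The miR-545 strands, by comparison, had no reads in any plasma library, where 3 reads are up to 7.97 RPM.

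**Figure D5:**
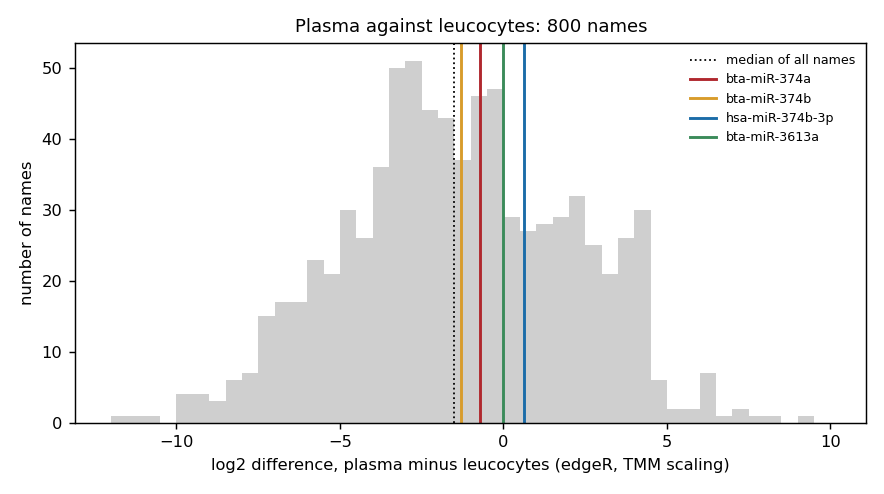
Histogram of the log2 difference between plasma and leucocytes (edgeR, TMM scaling, in steps of 0.5) over 800 names, with the median dotted and the 4 miRNAs as coloured lines. All 4 lines lie to the right of the median, from -1.29 to 0.62.

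Within a library and averaged over the diets, bta-miR-374a stood higher against bta-miR-374b in plasma than in leucocytes. The leucocyte average includes the HG libraries whose fall chose the members, so the tests of these ratios are not free of that choice. On FD alone the log2 ratio in cows 1, 3 and 4 was 0.33, 0.75 and -0.20 in plasma. In leucocytes it was 0.31, 0.19 and 0.20 on FD. The log2 ratio averaged over the diets of a cow was 0.53 ± 0.40 in plasma (SD, n = 4 cows) and -0.11 ± 0.10 in leucocytes (SD, n = 3 cows), a difference of 0.64 (exact permutation test, two-sided, p = 0.0571, adjusted p = 0.171 over 6 ratios). The log2 arm ratio of miR-374b was 4.19 ± 0.89 in plasma and 5.36 ± 0.39 in leucocytes, a difference of -1.17 with the same p (exact permutation test, two-sided, p = 0.0571, adjusted p = 0.171). Neither passed the threshold, and the smallest p that 4 against 3 cows allow here is 0.0286. This test takes the tissues as independent, although cows 1, 3 and 4 gave both. Within these cows, again averaged over the diets, the log2 ratio of bta-miR-374a to bta-miR-374b was higher in plasma by 0.25, 1.03 and 0.28. The log2 arm ratio differed by -0.58, -2.39 and -1.19. Each had 1 sign in 3 of 3 cows (exact two-sided test over sign flips, p = 0.25 for both, the smallest that 3 cows allow). On FD alone the signs were mixed for both ratios. There the log2 arm ratio was 6.01, 1.37 and 5.79 in plasma and 4.74, 4.80 and 5.47 in leucocytes. Plasma libraries were matched to these cows by label order alone. The other 4 ratios had exact permutation p-values from 0.171 to 0.886.

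The number of distinct sequences behind the reads was also compared with names of like read number, 0.5 to 2 times that of the member, in the same library. In leucocytes bta-miR-374a was made up of 96 to 229 distinct sequences per library, bta-miR-374b of 128 to 236 and bta-miR-3613a of 21 to 47. Each of these members was below the median of the like names in 6 of 6 leucocyte libraries. In plasma these numbers were 10 to 37, 8 to 31 and 3 to 9, below that median in 5, 8 and 4 of 8 libraries. The remaining member, hsa-miR-374b-3p, was below it in 4 of 6 leucocyte libraries and in 3 of 8 plasma libraries.

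The names most like bta-miR-374a were sought by Pearson's r of the log2 level, given as a description, since libraries of a cow and of a diet are not independent. Over the 6 leucocyte libraries and 240 names, these were bta-miR-29c (r = 0.986), bta-miR-6524 (r = 0.984), bta-miR-32 (r = 0.977), bta-miR-2285bf (r = 0.968) and bta-miR-28 (r = 0.959), on 5 other chromosomes. These libraries include the diet contrast that chose bta-miR-374a. All 5 names had a negative edgeR log2 fold change in it, from -0.78 to -0.34. Among the members r with bta-miR-374a was 0.942 for hsa-miR-374b-3p, 0.878 for bta-miR-374b and 0.819 for bta-miR-3613a. The least alike pair was bta-miR-374b and bta-miR-3613a, with r = 0.523.

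Over all 14 libraries and 304 names, the nearest names were others, with bta-miR-2419-5p (r = 0.700), bta-miR-744 (r = 0.699), hsa-miR-20a-3p (r = 0.698), bta-miR-6120-3p (r = 0.695) and bta-miR-6119-5p (r = 0.690). The members bta-miR-374a and bta-miR-374b had r = 0.848 there, above all of these, while r with bta-miR-374a was 0.576 for bta-miR-3613a and 0.478 for hsa-miR-374b-3p, the reverse of their order in leucocytes. Between hsa-miR-374b-3p and bta-miR-3613a r was 0.822.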

How the data were processed

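The study sequenced small RNA libraries (demultiplexed with bcl2fastq 2.20 per the submitters' processing notes) and matched reads to bovine and human miRNA names on UMD3.1 with sRNAbench. For each library the authors deposited read counts, distinct read sequences, estimated counts (a read shared among the names it matches) and RPM values, which served here to recover library totals. The authors' normalized tables were not used.

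Estimated counts, rounded, were tested with edgeR 4.0.16 in R 4.3.3 (quasi-likelihood, robust, TMM, names with at least 10 counts in total) and Benjamini-Hochberg adjustment, with cow as a block in every fit, after the study's model of cow plus diet. The tissue fit had the 4 tissue and diet groups and compared the means over diets. DESeq2 1.42.0, the study's tool in another version, was an alternative. The code was tested on simulated data. Ratios within a library used a pseudocount of 0.5.

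The members and lists were chosen with earlier results of these data known. Names given are the members, names of miR-374, miR-3613, miR-545 and miR-421, names within 100 kb, miR-15a, miR-16a and miR-16b, and the 5 names most like bta-miR-374a. Leucocyte libraries pair by the letter in their titles, and same-cow deviations from the diet means correlated at 0.44 to 0.65. Plasma libraries pair by label order alone, where same-cow values were -0.20 to 0.14 and other-cow values -0.25 to 0.32. Libraries are separate samplings of 3 or 4 cows. Mature sequences were not used here.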

Additional observations from a re-analysis of the deposited data

Results flagged for a closer look

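Of 20 plasma groups of 4 libraries examined for a library far from the others, 4 stood out, and chance alone marks about 1 in 20. On FD, cow 1 had 1396 RPM (reads per 1000000 miRNA reads) of bta-miR-374a against 117 to 333 in the other cows, and 1107 of bta-miR-374b against 133 to 199. This was the plasma library with the fewest miRNA reads, 376589. On HG, cow 1 had 73.5 RPM of hsa-miR-374b-3p against 16.9 to 22.6 in the other cows. On FD, the log2 ratio of bta-miR-374b to hsa-miR-374b-3p was 1.37 in cow 3 against 5.40 to 6.01 in the others, in the library where 135 reads of hsa-miR-374b-3p were of 1 distinct sequence. The cause of these values was not tested.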

How the results depend on the processing

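In leucocytes all 4 members kept a negative change under all alternatives run. This sign, without a cow or without the block, follows from the choice of the members and is no support. Scaling to bta-miR-103 and bta-miR-107 moved bta-miR-374a to -1.20, bta-miR-374b to -0.52 and bta-miR-3613a to -1.27 (log2). Without the replicate block for cow they were -0.92, -0.26, -0.96 (hsa-miR-374b-3p) and -1.02. Leaving out 1 cow gave -0.98 to -0.84, -0.27 to -0.18, -1.05 to -0.78 and -1.07 to -0.88.

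The number of names called in leucocytes, 15, became 25 with DESeq2, 9 with DESeq2 size factors, 6 without erythrocyte names, 5 with identical names once, 0 without the replicate block (45 at an unadjusted p below 0.05) and 0 to 102 without 1 cow. In plasma DESeq2 called 12 in place of 0. Without the replicate block, plasma changes reversed to -0.090 for bta-miR-374a and -0.074 for bta-miR-374b, while hsa-miR-374b-3p went from 1.49 to 0.12 and bta-miR-3613a from 0.67 to 0.44. Leaving out 1 cow gave -0.10 to 0.35 for bta-miR-374a, 0.84 to 2.51 for hsa-miR-374b-3p and 0.43 to 1.07 for bta-miR-3613a.

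Between tissues, 371 names were called, against 151 on FD alone and 236 at a minimum of 10 CPM. For bta-miR-374a the difference passed the test with DESeq2 (-0.96), at 10 CPM (-1.04) and without cow 1, and reversed with library size scaling (0.29) and the 2 reference miRNAs (0.56). The call of bta-miR-374b was lost with library size scaling (-0.30), the reference miRNAs (-0.074) and FD alone (-1.31). For bta-miR-3613a the difference reversed without erythrocyte names (0.016), with identical names once (0.061), library size scaling (0.93) and the reference miRNAs (1.16), and for hsa-miR-374b-3p on FD alone (-0.78). Leaving out 1 cow gave -1.67 to -0.36, -2.32 to -0.997, -0.69 to 0.27 and -0.22 to 1.09 (bta-miR-374a, bta-miR-374b, bta-miR-3613a, hsa-miR-374b-3p).

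Among the ratios, reversals came from leaving out a cow, and, chosen after seeing the data, from comparing tissues within the 3 cows that gave both (-0.18 for bta-miR-3613a over hsa-miR-374b-3p, 0.072 over all cows). On the log2 scale, bta-miR-3613a over hsa-miR-374b-3p then ranged from -0.10 to 0.0096 (leucocyte diet), -1.34 to 0.19 (plasma diet) and -0.18 to 0.23 (tissues), bta-miR-374a over bta-miR-374b from -0.20 to 0.23 (plasma diet), bta-miR-374a over hsa-miR-374b-3p from -0.060 to 0.093 (leucocyte diet) and bta-miR-374b over bta-miR-421 from -0.83 to 1.06 (plasma diet). Causes were not tested. Alternatives that need GC content or seeds were not run, as mature sequences were not used here. Plasma reads of hsa-miR-374b-3p, 4 to 7 in 3 FD libraries, limit what its values can show.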
